A study of Rattus norvegicus with 3 samples.

Results

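T cells were found in the injured rat spinal cord as the cells that carried transcripts of the CD3 complex or of its signalling partner Lat. Of 6471 cell barcodes in 3 single-cell RNA libraries, 5815 passed a filter of 200 detected genes or more and 20% mitochondrial transcripts or less, and 192 of these 5815 cells (3.30%) were chosen by these transcripts as T cells. A T cell had at least 1 unique molecular identifier (UMI, a count of 1 captured transcript) of at least 2 of the 4 genes Cd3e, Cd3d, Cd3g and Lat and no UMI of the phagocyte receptor gene Csf1r. It also had fewer than 2 UMIs of the B cell genes Cd79a and Cd79b together and under 100 UMIs of the neutrophil genes S100a8 and S100a9 per 10000. Because these genes chose the cells, their levels and every difference from the remaining cells are given as a description.

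Wild-type rats aged 6 to 8 weeks, 5 per condition, received an injection at the site of a spinal cord injury. The PBS library came from animals given phosphate-buffered saline, and the G-HD and MPG-HD libraries from animals given 1 of 2 preparations that the labels call GHD and MPGHD and the series title places among hydrogel depots. Cells were released with collagenase and then trypsin from 5 mm of cord around the lesion, strained, treated to lyse red cells and captured with a 10x Genomics 3′ kit. Each condition had 1 library, the labels do not say how its animals were pooled, and neither strain, sex nor time after injury is given in the sources used here. No test between treatments was therefore possible. The 95% intervals are exact and cover counting error only, and they say nothing of the spread between animals. The word infiltrating was not examined, since T cells of the tissue and of its blood vessels cannot be told apart here.

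A T cell reads antigen through its T cell receptor, and the CD3 chains and Lat carry that signal into the cell. CD8 T cells kill target cells and release chemokines, CD4 helper cells direct other immune cells through cytokines, and regulatory T cells, which depend on the factor Foxp3, restrain the response. A smaller class of helper and innate-like T cells makes interleukin 17, a cytokine that draws in neutrophils. T cells enter the cord after injury and have been linked both to tissue damage and to repair.

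Libraries held between 16081082 and 26289759 UMIs. The T cells summed to 167322 UMIs in PBS, 373065 in G-HD and 204517 in MPG-HD. Median UMIs per T cell were 3558, 3223 and 3470, with 2.79%, 2.85% and 3.09% mitochondrial, against medians between 9656 and 10698 in the other passing cells. Pairs of libraries shared 8, 5 and 8 barcodes, and 1 of these belonged to a T cell. In PBS, G-HD and MPG-HD, 15 phagocyte markers took 17.2, 27.1 and 18.3 UMIs per 10000 in T cells and 829.5, 1001 and 745.5 in other cells. The phagocyte genes Mrc1, Fcgr1a and Adgre1 were at 0 in T cells. For 9 oligodendrocyte markers the T cell values were 9.26, 5.20 and 47.5 against 141.7, 69.0 and 166.6, and 1 MPG-HD cell of 28670 UMIs held most of the third value. Of 11 B lineage markers 2, Cd79b and Jchain, and of 8 mast cell and basophil markers none, had a UMI in T cells. Of 8 natural killer markers 7 had a UMI in T cells, and together they took 0.604 per 10000, against 1.45 in other cells.

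The gate fell in a sparse region. All 4 genes were detected in 142 T cells, 3 in 39 and exactly 2 in 11, and 154 passing cells just outside it had 1 of the 4. Of those 154, 75 had only Lat and 52 only Cd3g, of which 28 also carried Cd79a. A Csf1r UMI kept out 6 cells that carried enough T cell genes, the Cd79 limit 1 and the S100 limit 1, and the highest S100 level in a T cell was 6.63 per 10000. Cd2, a marker of the label that the gate did not use, was detected in 151 of 192 T cells (78.6%).

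T cells made up 42 of 1377 cells in PBS (3.05%, exact 95% interval 2.21 to 4.10), 101 of 2347 in G-HD (4.30%, 3.52 to 5.21) and 49 of 2091 in MPG-HD (2.34%, 1.74 to 3.09). The share was highest in G-HD and lowest in MPG-HD, and the PBS interval met both others. The ratio of shares was 0.545 (0.379 to 0.773) for MPG-HD over G-HD, 1.41 (0.975 to 2.07) for G-HD over PBS and 0.768 (0.498 to 1.19) for MPG-HD over PBS. Against 100 phagocytes, taken as cells with a Csf1r UMI, there were 6.35 T cells in PBS, 9.86 in G-HD and 5.37 in MPG-HD, the same order. Against 100 oligodendrocytes the values were 19.4, 63.5 and 12.3, and oligodendrocytes themselves differed, with 216, 159 and 397 cells. For G-HD over PBS, the T cell difference was smaller than that of B lineage cells and neutrophils. For MPG-HD over PBS, the T cell ratio lay between theirs, 0.906 (0.332 to 2.59) for B lineage cells and 0.659 (0.363 to 1.20) for neutrophils. B lineage cells numbered 8, 98 and 11, a G-HD over PBS ratio of 7.19 (3.51 to 17.1), and neutrophils 25, 129 and 25, a ratio of 3.03 (1.96 to 4.85). With B lineage cells and neutrophils taken out of the denominator, an alternative chosen after the data were seen, the T cell ratios were 1.52 for G-HD over PBS and 0.500 for MPG-HD over G-HD.

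**Figure D1:**
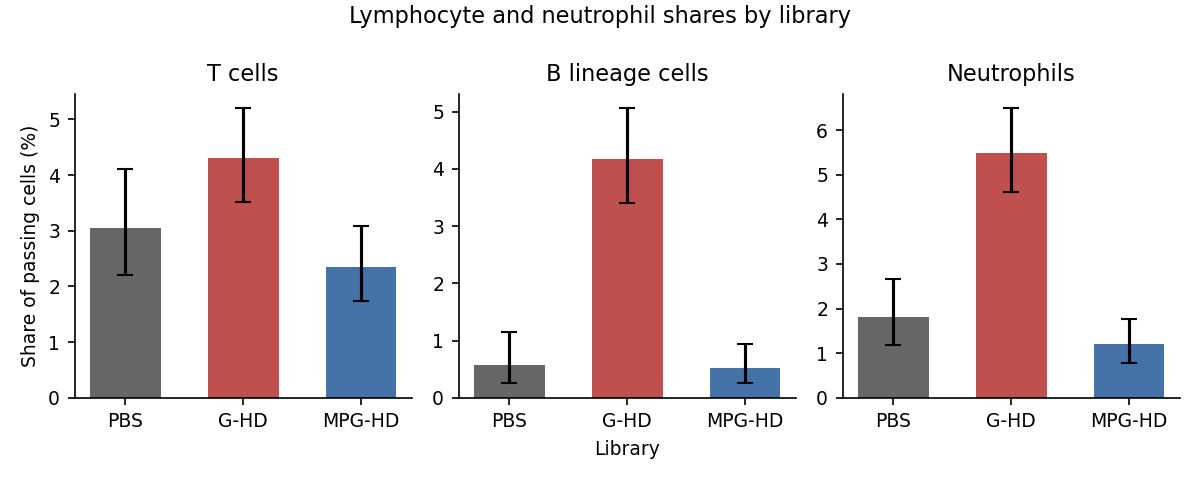
Share of passing cells (%) that were T cells, B lineage cells or neutrophils in each library; bars are 1 library each and error bars are exact 95% intervals for counting error. T cells span 2.34% to 4.30%, with G-HD highest in all 3 panels.

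As a description of identity, the genes with the largest ratio to the other cells (15 named, leaving out gate genes and features with no gene symbol, pseudocount of 20 CPM, the counts-per-million scale on which the UMIs of summed cells are divided by their total) were T cell and cytotoxic genes. Ccl5, a chemokine of effector T cells, stood at 4100 CPM against 39.2, a ratio of 69.6, and was followed by the cathepsin Ctsw (44.9) and the CD45-associated protein gene Ptprcap (42.0). Cd2 (27.0), the receptor kinase Lck (22.9), the granzyme Gzmm (20.2), Gimap7 (19.2), Gimap4 (19.1), Nkg7 (18.8), the early activation gene Cd69 (16.4) and the chemokine receptor Cxcr3 (15.3) came next, then Septin1, Cd247, Icos and Tnfrsf18 at 12.3 to 13.8. Ptprcap was detected in 96.9% of T cells and in 5.05% of the other cells, and Lck in 83.9%. Among features with no gene symbol, AABR07017902.1 had a ratio of 72.3 and AC109737.1 one of 45.3, and they were detected in 95.8% and 82.8% of T cells and in 1.03% and 0.747% of other cells.

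Cells of the CD8 kind were the largest recognisable group. Cd8a, a chain of the CD8 coreceptor, was detected in 21 of 42 T cells in PBS (50%), 44 of 101 in G-HD (43.6%) and 26 of 49 in MPG-HD (53.1%), with overlapping intervals. Cd8b was detected in 15, 27 and 18 T cells, and 57 of its 60 carriers had Cd8a as well. Rat phagocytes also carried Cd8a, in 60.1%, 68.4% and 61.9% of those with Csf1r, so a Cd8a UMI alone does not name a T cell here. Among the 94 T cells with no UMI of C1qa, C1qb, C1qc or Cd68, 54 (57.4%) had Cd8a. In oligodendrocytes, which should lack it, Cd8a was detected in 2.72% at a median of 12256 UMIs, against 47.4% of T cells at a median of 3348.

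Cd4, the coreceptor of helper cells, was barely captured. It had 11 UMIs in 10 T cells, 3 in PBS, 1 in G-HD and 6 in MPG-HD, and none of these cells had Cd8a. No Cd4, Cd8a or Cd8b UMI was found in 88 T cells, numbering 18, 53 and 17, and the absence of Cd4 UMIs at this depth does not show that they lacked the coreceptor.

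After every cell was thinned to 1000 UMIs, which left out 1 PBS T cell and none of the others, Cd8a was detected in 24.4%, 31.7% and 32.7% of T cells and in no oligodendrocyte. Thinned shares of Ccl5 were 26.8%, 24.8% and 30.6%, and unthinned 15 of 42, 28 of 101 and 17 of 49 cells. For Nkg7 the thinned shares were 36.6%, 20.8% and 28.6%, and the unthinned counts 18, 32 and 20. For Ctsw, Nkg7, Gzmm, Ccl5, Gzmk and Prf1 the unthinned intervals of the 3 libraries overlapped.

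**Figure D2:**
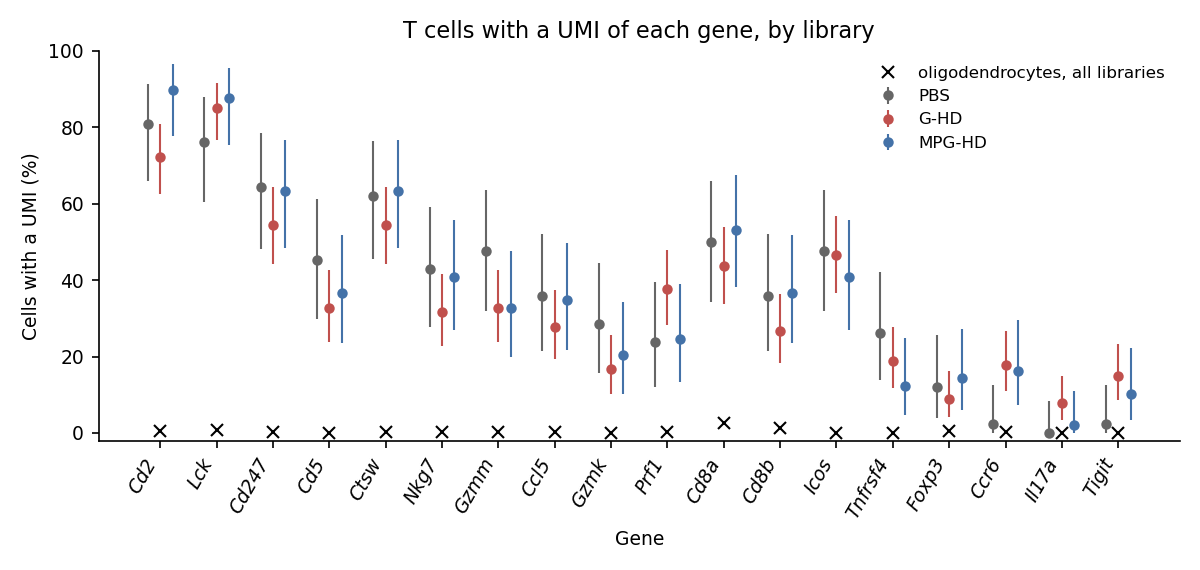
Share of T cells (%) with a UMI of each gene, unthinned, in PBS (n = 42), G-HD (n = 101) and MPG-HD (n = 49), with exact 95% intervals, and in 772 oligodendrocytes (crosses). Intervals overlap for most genes, and Ccr6, Il17a and Tigit sit at or near 0 in PBS.

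To describe how the T cells varied, they were split into 4 disjoint groups after their values were seen, so the groups get no test. Those with a Foxp3 UMI numbered 21, those with Il17a or Il17f 9, those left with Cd8a or Cd8b 90, and 72 had none of these. By library in the order PBS, G-HD and MPG-HD, the Foxp3 group held 5, 9 and 7 cells, the interleukin 17 group 0, 8 and 1, the CD8 group 21, 44 and 25, and the remainder 16, 40 and 16.

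The CD8 group carried most of the cytotoxic and chemokine transcripts. Ccl5 was detected in 58 of its 90 cells at 8059 CPM, in no Foxp3 or interleukin 17 cell and in 2 of the 72 remaining cells. Gzmk, a granzyme, was found in 39 of the 90 and in no cell of the other groups, and 37 of the 39 Gzmk cells also had Ccl5. Nkg7, a cytotoxic granule protein gene, was detected in 66 of the 90 and in 4 cells elsewhere. Perforin, Prf1, was spread more widely, in 44 of 90 CD8 cells, 6 of 9 interleukin 17 cells, 3 of 21 Foxp3 cells and 7 of 72 others. The granzyme gene Gzmb had 0 UMIs in all T cells, while other granzyme genes of the cytotoxic list were detected. Gzmbl2 had 9 UMIs in 3 PBS and 27 in 13 G-HD T cells, and Gzma 1 UMI in 1 PBS and 19 in 5 G-HD T cells.

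The Foxp3 group carried genes of regulatory T cells, not all of them confined to it. Ctla4, a gene of the regulatory list, was detected in 8 of 21 Foxp3 cells and in 44 of the 171 T cells without Foxp3. The tumour necrosis factor receptor genes Tnfrsf18, Tnfrsf4 and Tnfrsf9 were detected in 20, 15 and 13 of 21 Foxp3 cells. In the CD8 group the same genes were detected in 19, 0 and 0 of 90, and in the 72 remaining cells in 31, 20 and 12. Il2ra, the high-affinity interleukin 2 receptor chain, was found in 12 of 21 Foxp3 cells, 6 of 9 interleukin 17 cells, 4 of 90 CD8 cells and 18 of 72 others. Gata3, a helper and regulatory cell factor, was detected in 14 of 21 Foxp3 cells. Over all groups Gata3 was found in 10 PBS, 22 G-HD and 13 MPG-HD T cells, so it was not confined to Foxp3 cells. Il1rl1, the interleukin 33 receptor, was found in 6 of 21 Foxp3 cells and in no cell of the other groups. Foxp3 cells had no UMI of Ccl5, Nkg7, Gzmm or Ctsw.

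The 72 remaining cells carried genes of several kinds. Icos was found in 39 of them, Cxcr3 in 31, Cd40lg, the helper cell ligand for B cells and phagocytes, in 28, Tnfrsf4 in 20 and Ccr6 in 16. The thymocyte genes Rag1, Rag2 and Dntt and the germinal centre receptor Cxcr5 had 0 UMIs in all 192 T cells, and the natural killer factor Eomes was found in 3.

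**Figure D3:**
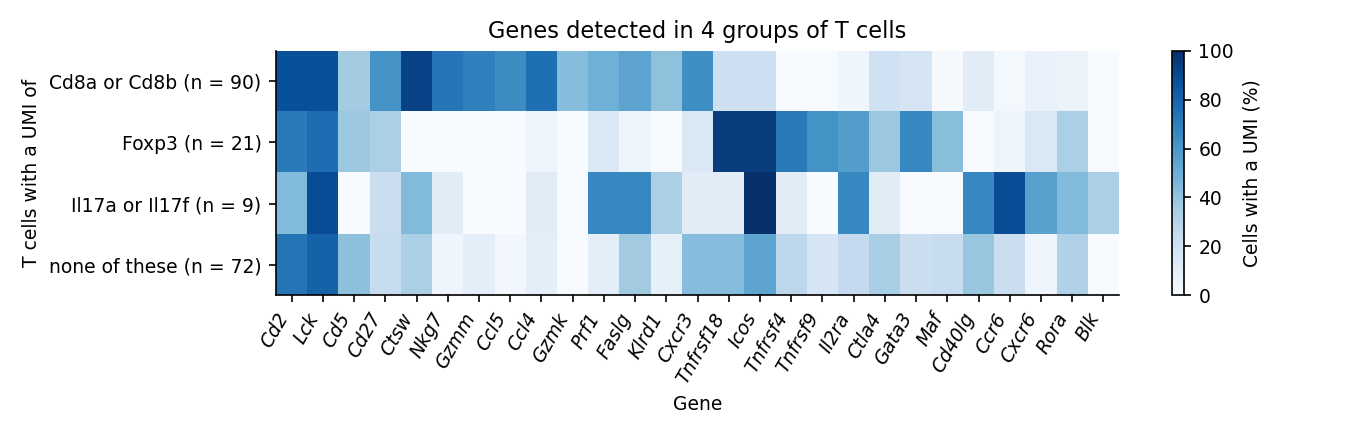
Share of T cells (%) with a UMI of each gene (columns) in 4 groups set by Cd8a or Cd8b (n = 90), Foxp3 (n = 21), Il17a or Il17f (n = 9) and none of these (n = 72); darker is a larger share. Ccl5, Gzmk and Gzmm are dark only in the first row, Tnfrsf4 and Tnfrsf9 are darkest in the second, and Ccr6 is darkest in the third.

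Interleukin 17 transcripts were concentrated in a few G-HD cells. Il17a (ENSRNOG00000012467) had 0 UMIs in PBS, 197 in G-HD and 1 in MPG-HD, in 0, 8 and 1 T cells. The 8 G-HD cells held 4, 43, 15, 40, 1, 65, 28 and 1 UMIs. The G-HD level of 528.1 CPM was 29.5 times a floor of 3 UMIs in PBS, with a lower exact 95% limit of 23.7. That limit takes every UMI as independent, and with the UMIs held by so few cells it does not bound the difference. MPG-HD over G-HD was 0.00926 (0.000233 to 0.0522). The share of T cells with an Il17a UMI was 0 of 42 in PBS, with an exact interval up to 8.41%, and 7.92% in G-HD (3.48 to 15.01). These intervals overlap, so a difference in that share was not detectable at this depth. The level rests on 5 cells with 15 UMIs or more, and after thinning to 1000 UMIs G-HD had 25 UMIs and PBS 0, a ratio of 3.38 against the same floor. Il17a was detected in none of 772 oligodendrocytes.

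1 PBS cell stood just outside the gate and bears on this result. It had 4 Il17a and 4 Ccr6 UMIs, 7 of Cd3e, 13 of Cd3d, 11 of Cd3g and 6 of Lat among 15312 UMIs, and was kept out by 1 UMI of Csf1r. With no condition on Csf1r, an alternative chosen after the data were seen, the G-HD over PBS ratio was 23.1 for Il17a and 6.64 for Ccr6. In 3 other cells outside the gate, all from G-HD, there was 1 Il17a UMI each and no UMI of the 4 gate genes.

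Ccr6 (ENSRNOG00000012964), the receptor for Ccl20 that interleukin 17 cells are known to carry, went with Il17a in the same cells. It had 1 UMI in PBS, 69 in G-HD and 17 in MPG-HD, in 1, 18 and 8 T cells, so PBS was low and G-HD high. G-HD over PBS was 30.9 (5.37 to 1240) and MPG-HD over G-HD 0.449 (0.248 to 0.773), against 1.17 and 0.658 in the other cells. Of the 9 Il17a cells, 8 had Ccr6, as did 19 of the 183 without Il17a. Il17f was found in 3 cells, all with Il17a, and the interleukin 23 receptor gene Il23r in 2, both among the 9. The Src family kinase gene Blk was detected in 3 of the 9 interleukin 17 cells and in no other T cell, Cxcr6 in 5 and Icos in all 9, and Cd5 in none of the 9 against 70 of the other 183. Rora, a nuclear receptor gene, was found in 4 of the 9. Receptor constant genes were not analysed here, so αβ and γδ T cells cannot be told apart.

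**Figure D4:**
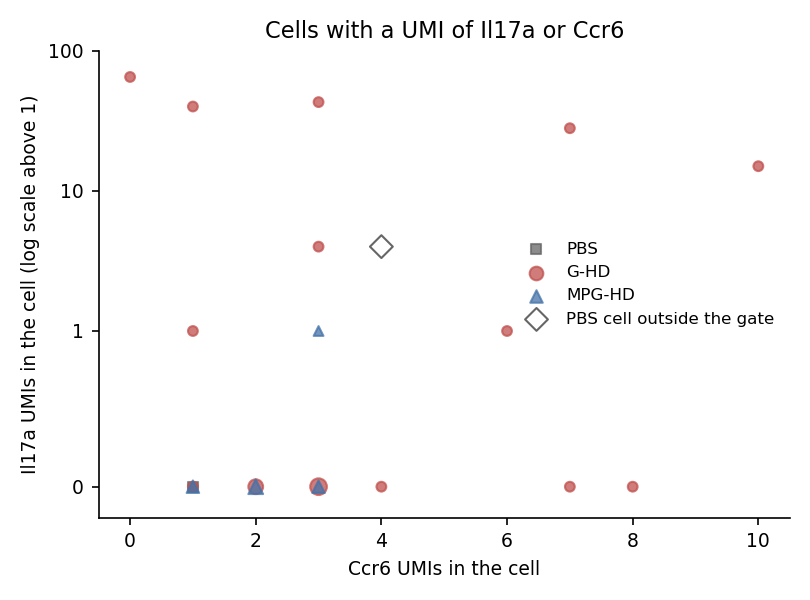
UMIs of Ccr6 (x axis) and Il17a (y axis, linear to 1 and logarithmic above) in each T cell with a UMI of either gene and in 1 PBS cell that the gate left out (open diamond). Larger symbols are several cells at 1 position; the cells above 10 Il17a UMIs are all from G-HD, and their Ccr6 counts run from 0 to 10.

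The promoters of both genes are shown because their transcripts shared cells. Each runs from 250 bases before to 50 after the transcript start, 5′ to 3′ on the gene's strand, from RefSeq on build GRCr8. Capitals mark TGACCT, the reverse complement of AGGTCA, a core motif of several nuclear receptors. The first lies at chr9:30640594-30640893 on the plus strand and the second at chr1:55046079-55046378 on the minus strand.
Il17a: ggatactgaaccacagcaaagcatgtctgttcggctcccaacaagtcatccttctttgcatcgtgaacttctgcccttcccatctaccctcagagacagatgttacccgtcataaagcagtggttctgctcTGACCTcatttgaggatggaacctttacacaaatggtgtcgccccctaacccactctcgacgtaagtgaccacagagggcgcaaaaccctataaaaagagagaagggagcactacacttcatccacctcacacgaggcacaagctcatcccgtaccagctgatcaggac
Ccr6: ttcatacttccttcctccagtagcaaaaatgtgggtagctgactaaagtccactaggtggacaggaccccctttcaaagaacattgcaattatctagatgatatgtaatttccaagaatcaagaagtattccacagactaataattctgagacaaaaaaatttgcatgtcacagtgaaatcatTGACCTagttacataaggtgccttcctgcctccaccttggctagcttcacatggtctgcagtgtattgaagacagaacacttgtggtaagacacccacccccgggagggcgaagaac
Each window held 1 match on either strand, beginning 119 bases before the start of Il17a and 67 before that of Ccr6. The motif was found in 5415 of 33469 promoters of the same 300 bases (16.2%), so a match is common and describes the letters only.

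Gene levels were then compared between the T cell sums of pairs of libraries, as CPM of each sum. UMIs are therefore to be read against T cell sums that were largest in G-HD, and every ratio is of CPM. A gene counted as measured if the 2 sums held 20 UMIs or more between them, as higher from a ratio of 2 upwards and as lower from 0.5 downwards. For G-HD over PBS, 190 of 2736 measured genes were higher (6.94%) and 77 lower (2.81%), with a median log2 ratio of 0.07. For MPG-HD over PBS, 181 of 2109 were higher (8.58%) and 80 lower (3.79%). For MPG-HD over G-HD, 171 of 2959 were higher (5.78%) and 152 lower (5.14%). The comparisons share libraries, so their counts are not independent of each other. By the ranking rule, the genes named as higher in G-HD than PBS were Ccr6, Taf10, Ybx1-ps3, Lyz2, Tent5a, RT1-T24-4, Mgat2 and Tigit. Those named as lower were Hsph1, Chordc1, Pdcd1lg2, Dnaja1, Cacybp, Hsp90aa1, Stip1 and Jun.

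Chaperone genes were lower in G-HD T cells than in PBS T cells. Hsph1 (ENSRNOG00000000902), a heat shock protein of the Hsp110 family, had 40 UMIs in PBS, 11 in G-HD and 33 in MPG-HD, in 26 of 42, 7 of 101 and 17 of 49 T cells. PBS was high and G-HD low, a ratio of 0.123 (0.0571 to 0.245), and MPG-HD over G-HD was 5.47 (2.70 to 12.0). In the other cells the same ratios were 0.939 and 1.20. Thinned shares of T cells with Hsph1 were 34.1%, 2.97% and 18.4%.

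Dnaja1 (ENSRNOG00000007029), an Hsp40 co-chaperone, had 143, 89 and 53 UMIs and was detected in all 42 PBS T cells, 48 of 101 in G-HD and 29 of 49 in MPG-HD. Its level was 854.6 CPM in PBS, 238.6 in G-HD and 259.1 in MPG-HD, so here PBS alone was high. The ratios were 0.279 (0.212 to 0.366) for G-HD over PBS and 0.303 (0.217 to 0.418) for MPG-HD over PBS, against 0.683 and 0.951 in the other cells. The thinned shares were 43.9%, 20.8% and 30.6%.

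Hsp90aa1, the inducible form of Hsp90, stood at 514, 158.1 and 366.7 CPM, with G-HD again low, at 0.308 (0.217 to 0.434) of PBS. MPG-HD over G-HD was 2.32 (1.63 to 3.32). The Hsp90 co-chaperones Chordc1 and Stip1 and the Hsp90-binding Cacybp showed G-HD over PBS ratios of 0.131 (0.0628 to 0.255), 0.255 (0.142 to 0.446) and 0.268 (0.176 to 0.402). In the other cells these ratios were 0.537, 1.13 and 0.982, and that of Hsp90aa1 was 0.964. Dnajb1 was lower in both, at 0.4635 in T cells and 0.536 in the other cells. The constitutive forms differed less, Hspa8 at 0.559 (0.498 to 0.627) and Hsp90ab1 at 0.748 (0.685 to 0.817), both detected in all but 1 T cell or in all of them. Of 9 measured genes in the heat shock list, 5 were lower and 1 higher in G-HD than PBS, against 2.81% lower and 6.94% higher over all measured genes. Their median log2 ratio was −1.11, against −0.09 for the same genes in the other cells and 0.07 over all genes. The higher one, Hspb1, had 22 UMIs in G-HD and 0 in PBS, with 20 of the 22 in 1 cell. For MPG-HD over PBS, 2 of 8 were lower, against 3.79% of all measured genes. The list's median was −0.62, and after thinning it was −0.08.

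PBS was also above G-HD within the groups of T cells that had PBS cells, and the interleukin 17 group had none. Among CD8 cells, Dnaja1 stood at 812.8 CPM in PBS, 211.1 in G-HD and 254.8 in MPG-HD. Among cells with none of the group genes it stood at 898, 293.3 and 215.9, and among Foxp3 cells at 901.9, 162.8 and 375.7 from 5, 9 and 7 cells. Hsph1 in CD8 cells was at 232.2, 24.1 and 76.5 CPM and in the remainder at 216.2, 47.6 and 215.9. The place of MPG-HD varied. With 1 library per treatment, treatment and the handling of that cell suspension cannot be told apart.

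**Figure D5:**
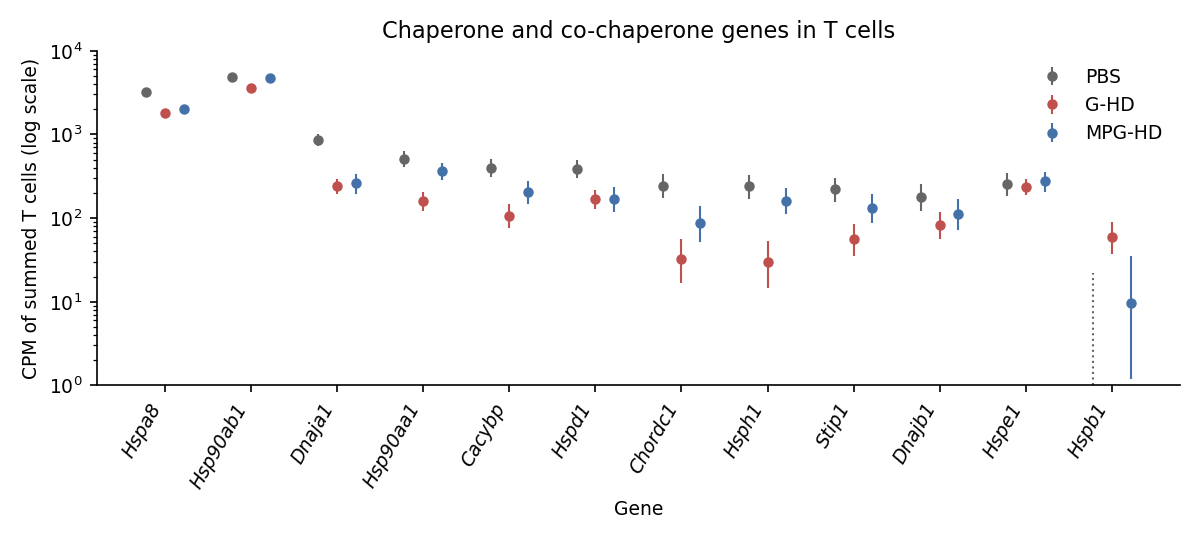
Level (CPM of the summed T cells, log axis) of 12 chaperone and co-chaperone genes in PBS, G-HD and MPG-HD, with exact 95% Poisson intervals; a dotted line runs up to the upper limit where no UMI was counted. PBS lies above G-HD for every gene but Hspb1, from a ratio of 0.123 for Hsph1 to 0.918 for Hspe1. Chordc1, Cacybp and Stip1 are not in the heat shock list. They were named as lower in G-HD than PBS in these data, so their direction here adds nothing to the list.

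Jun, an early response factor, followed the same order, with 45, 28 and 51 UMIs in 18, 17 and 17 T cells. G-HD over PBS was 0.279 (0.168 to 0.457) and MPG-HD over G-HD 3.32 (2.06 to 5.47), against 1.02 and 1.07 in the other cells. In the immediate early list, 2 of 13 measured genes were lower and none higher for G-HD over PBS. Over all measured genes 2.81% were lower and 6.94% higher. The list's median log2 ratio was −0.14, against 0.07 over all genes. Pdcd1lg2, a ligand of the checkpoint receptor PD-1, had 21, 6 and 7 UMIs in 11, 6 and 5 T cells, a G-HD over PBS ratio of 0.128 (0.0423 to 0.328).

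Among genes higher in G-HD than PBS, Tigit, a checkpoint receptor of regulatory and effector cells, had 1, 23 and 11 UMIs in 1, 15 and 5 T cells. The ratio was 10.3 (1.67 to 424.9), and without the cell with the most Tigit UMIs in each library PBS was at 0 and G-HD at 19 UMIs, a ratio of 2.83 against the floor of 3 UMIs. Tent5a, a poly(A) polymerase gene, had 7, 60 and 25 UMIs, with PBS low, and a ratio of 3.84 (1.76 to 9.97) against 1.04 in other cells. Taf10, a transcription factor subunit gene, had 11, 86 and 45 UMIs in 9, 55 and 30 T cells, a ratio of 3.51 (1.86 to 7.29), and it was also higher in the other cells, at 2.00. RT1-T24-4, a rat class I histocompatibility gene, was detected in 20 of 42, 92 of 101 and 44 of 49 T cells. Its sum of 75, 373 and 132 UMIs gave a ratio of 2.23 (1.736 to 2.898), and as one of a family of similar class I genes it may share reads with others, which was not tested. The pseudogene Ybx1-ps3, which may share reads with its parent gene, stood at 3.97 (1.82 to 10.3).

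Lyz2, the lysozyme gene of phagocytes, had 14, 97 and 16 UMIs in T cells, and the other cells carried it at 7111, 11664 and 4565 CPM. It was detected in 41.1% of T cells, at a median of 3348 UMIs, and in 58.7% of oligodendrocytes, at a median of 12256. At depths this unequal the shares do not show whether its level in T cells was at background. Mgat2 had 2, 30 and 15 UMIs and a ratio of 6.73 (1.71 to 58.1), and after thinning PBS had 0 and G-HD 7 UMIs, too few for a ratio.

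Interferon response genes were modestly higher in G-HD T cells, as in the other cells. Of 15 measured, 4 were higher and none lower in G-HD than PBS, against 6.94% higher and 2.81% lower over all measured genes. The list's median log2 ratio was 0.51, against 0.87 in the other cells. Ifi27 stood at 185.3, 453 and 244.5 CPM, a ratio of 2.44 (1.66 to 3.71), and Mx2, an antiviral GTPase gene, at 59.8, 139.4 and 58.7, a ratio of 2.33 (1.17 to 5.15). Oas1a was at 2.09 (1.00 to 4.89) and Oasl2 at 2.14 (1.03 to 5.00), the latter turning to 0.893 after thinning. For MPG-HD over PBS none of 10 measured genes passed the 2-fold limit and the median was 0.06.

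The list counts that follow are to be read against all measured genes. Of those, 6.94% were higher and 2.81% lower for G-HD over PBS, and 8.58% and 3.79% for MPG-HD over PBS. For MPG-HD over G-HD the shares were 5.78% and 5.14%. The genes of oxidative phosphorylation had 17 measured and none called in any pair, with medians of 0.10, 0.07 and 0.00 for G-HD over PBS, MPG-HD over PBS and MPG-HD over G-HD. T cell receptor signalling genes (10, 9 and 10 measured) had no gene called, with medians of 0.11, −0.13 and −0.49. Cytotoxic effectors had 2 of 12 higher in G-HD than PBS and 4 of 12 lower in MPG-HD than G-HD, with medians of 0.35, −0.29 and −0.67. Within that list, Gzmk had 30, 125 and 33 UMIs, MPG-HD over G-HD being 0.482 (0.318 to 0.712) and turning to 1.03 after thinning. Prf1 had 21, 60 and 15, a ratio of 0.456 (0.240 to 0.813). Of 6 measured cytokine receptors 3 were lower in MPG-HD than PBS, with a median of −0.53. Of the 23 lists with a median, 12 were above 0 and 11 below for G-HD over PBS, and 4 above and 19 below for MPG-HD over G-HD. For MPG-HD over PBS, 4 were above and 18 below. The medians over all measured genes were 0.07, −0.06 and 0.02 in these pairs. The MPG-HD total includes a cell with 28670 of its 204517 UMIs and 1 of its 105 Lck UMIs. Over the alternatives, MPG-HD over PBS medians ran from −0.31 to 0.185 for cytotoxic effectors and −0.18 to 0.05 for receptor signalling. Those of the cytokine receptors ran from −1.22 to 0.103, on both sides of 0. The regulatory list stayed between −0.87 and −0.55.

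Of the genes ranked highest in MPG-HD, all but Hsph1 and Lag3 had most of their UMIs in 1 cell. Apod, Tf, Cst3, Tuba1a, Lamp1, Sec11c, Glul and Cnp were named as higher in MPG-HD than PBS, and Apod, Tf, Cst3, Glul, Sec11c, Hsph1, Cnp and Lag3 as higher than in G-HD. A single MPG-HD cell of 28670 UMIs that met the gate, the deepest of all 192, held 813 of the 825 Apod UMIs of its library's T cells. It held 311 of 362 of Cst3, 131 of 142 of Tf and 98 of 120 of the myelin gene Cnp, with 5 UMIs of Cd3e and 3 each of Cd3d, Cd3g and Lat. It had 1 of 105 Lck and 3 of 125 Cd2 UMIs and most of the oligodendrocyte marker UMIs of the MPG-HD T cells. Of the 94 Cldn11, 78 Mag and 35 Ermn UMIs in MPG-HD T cells, the richest cell for each gene held 93, 75 and 35. All 3 genes are among the 6 that set the oligodendrocytes, a class that took no cell with 2 or more gate genes. Phagocyte, oligodendrocyte and neutrophil markers reached at most 3.12% of the UMIs of an MPG-HD T cell. The counts of T cells and of the CD8 group include the deepest cell, and whether it was a mix of cell types was not tested. Without it, an alternative chosen after the data were seen, 84 genes in place of 181 were higher in MPG-HD than PBS and 56 in place of 171 higher than in G-HD. The Apod ratio to PBS was then 0.952 and the Cnp ratio 0.675, both having turned below 1.

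Without that cell, Myc, the gene of a growth-promoting transcription factor, led the higher genes of MPG-HD over PBS, with 7 UMIs in PBS and 33 in MPG-HD, a ratio of 4.49 (1.95 to 12.0), and G-HD had 26. Susd6 had 11, 30 and 35 UMIs, with PBS and G-HD close, and ratios of 3.03 (1.503 to 6.609) over PBS and 2.48 (1.48 to 4.17) over G-HD. Lag3, a checkpoint receptor, had 26 UMIs in G-HD and 49 in MPG-HD, a ratio of 4.00 (2.44 to 6.70). PBS had 27 Lag3 UMIs, 14 of them in 1 cell, and in CPM G-HD was the lowest of the 3, at 69.7 CPM against 161.4 in PBS. The remaining genes named then as higher than PBS were Taf10, Bcap31, Dcaf11, Psmg4, C1qb and Tent5a, and as higher than G-HD Hsph1, Hsp90aa1, Nkg7, Myc, Cd8b and Pdcd11.

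Among genes lower in MPG-HD than PBS, Batf, a factor of activated T cells, had 35, 41 and 13 UMIs in 17, 24 and 10 T cells, or 209.2, 109.9 and 63.6 CPM, highest in PBS and lowest in MPG-HD. Its MPG-HD over PBS ratio was 0.304 (0.147 to 0.589) against 0.997 in other cells. Il21r, the interleukin 21 receptor, had 32, 47 and 13 UMIs and a ratio of 0.332 (0.160 to 0.651), against 1.19 in other cells. Il2ra had 28, 34 and 12 UMIs and a ratio of 0.351 (0.162 to 0.712), and the other cells gave 0.316. Tnfrsf4, also known as OX40, had 46, 92 and 21 UMIs and a ratio of 0.373 (0.212 to 0.639), against 0.288 in other cells. Over all measured genes 3.79% were lower in MPG-HD than PBS and 8.58% higher. The activation and checkpoint list as a whole had 1 of 10 measured genes lower, none higher and a median log2 ratio of −0.21. Of 6 measured genes in the regulatory list, 2 were lower in MPG-HD than PBS, with a median log2 ratio of −0.85 against −0.60 in the other cells. The receptor adaptor Trat1 had 26, 37 and 12 UMIs, a ratio of 0.378 (0.174 to 0.775) against 0.134 in other cells. Ratios in the other cells have no interval here and may rest on few UMIs for T cell genes. Tnfrsf18 of the regulatory list, for 1, stood at 0.790 CPM in the other cells and at 234.9 in T cells.

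The galectin Lgals1 had 113, 249 and 51 UMIs, and MPG-HD was low against both PBS, at 0.369 (0.260 to 0.518), and G-HD, at 0.374 (0.271 to 0.507). Against PBS the other cells gave 0.945, and against G-HD 0.484. Stmn1, a microtubule regulator high in dividing cells, had 75, 151 and 61 UMIs, and its MPG-HD over PBS ratio of 0.665 (0.467 to 0.946) did not pass 2-fold. The deepest MPG-HD cell held 51 of the 61, and 1 PBS cell 48 of the 75. The ratio was 0.127 (0.0585 to 0.246) without the MPG-HD cell alone and 0.332 without the richest cell of each library. The proliferation marker Mki67 was found in 1 PBS, 6 G-HD and no MPG-HD T cells, where 0 of 49 allows a share of cells with a UMI of up to 6.12% at 3 counts and 7.25% by the exact interval. The other genes named as lower than PBS were Dnaja1, Chordc1, Serpinb6b, Tubb5 and Aprt.

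Against G-HD, MPG-HD was also named as lower for Fam111a, Lyz2, Mfsd10, Siva1, Tcf19, Pdia6 and Fcmr. Pdia6, a disulfide isomerase of the endoplasmic reticulum, had 111 UMIs in G-HD and 23 in MPG-HD, a ratio of 0.378 (0.230 to 0.596). Fam111a, Siva1 and Tcf19 rested on 1 UMI each in MPG-HD, with ratios of 0.0652, 0.0912 and 0.0912. After thinning, MPG-HD and G-HD held 0 and 5 UMIs of Fam111a, 1 and 2 of Siva1 and 0 and 4 of Tcf19, too few for a ratio.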

How the data were processed

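The labels state that 10x Genomics 3′ v3 libraries were made from 3 conditions. Per the file headers, the authors deposited raw integer counts of UMIs for 25199 features per cell barcode, with no normalization. Cell Ranger 3.0.2 is named per the submitters' processing notes, as are GRCm38 and mm10, which are mouse builds. The matrix header gives version 3.1.0 and the features carry rat Ensembl identifiers, so the rat build is not given in the sources used here. Filters and gate are given with the results. Members, gene lists and the 4 groups were chosen with earlier results of these data known.

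UMIs were summed over the T cells of a library and divided by their total (CPM). Intervals were exact (Clopper-Pearson for shares, Poisson for levels, conditional binomial for ratios) at 95%, and cover counting error only. Against a count of 0 the floor was 3 UMIs. Named genes in each pair had at least 20 UMIs, a ratio past 2-fold either way that kept its direction when every cell weighed the same, and UMIs in at least 10 T cells of the higher library. They were ranked by the bound nearest 1, and the first 8 in each direction were named, leaving out features with no symbol and the gate, haemoglobin, mitochondrial and ribosomal protein genes. Some genes are not reported here. List genes and the first 15 genes over the rest were named as well, and a few genes were named after their values were seen. For shares with a UMI, cells were thinned to 1000 UMIs, and oligodendrocytes (at least 3 of 6 marker genes) gave the background. Older symbols were matched through the RefSeq gene table.

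Scrublet (through Scanpy 1.11.5, expected rate 6%) called 12 of 5815 cells (0.206%) and none of the T cells. So low a rate was taken as the caller not having worked, and no cell was removed. Python 3.11.15, NumPy 2.4.6, SciPy 1.17.1 and pandas 2.3.3 were used, and the computation was tested on simulated data. Alternatives changed the cell filter, gate, cell weights, scaling, depth, UMI minimum and single cells.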

Additional observations from a re-analysis of the deposited data

How the results depend on the processing

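Each treatment had 1 library, so nothing here measures the spread between animals, and no paired analysis was possible because no test was made and each group has 1 replicate. Ratios of T cell shares between libraries, and shares except 1, moved by less than counting error under every alternative run; requiring Cd2 lowered the G-HD share to 3.11%. The causes of the changes below were not tested unless the alternative itself removes cells or genes.

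Counts of genes past 2-fold depended on the UMI minimum. At a minimum of 10 they were 509 higher and 268 lower (G-HD over PBS), 462 and 247 (MPG-HD over PBS) and 435 and 455 (MPG-HD over G-HD), and at 50 they were 42 and 20, 48 and 19, and 45 and 27. Thinned to 1000 UMIs they were 74 and 43, 24 and 15, and 38 and 67. Without the cell richest in each gene, 39 were lower in G-HD than PBS, and 76 and 40 were higher in MPG-HD than PBS and G-HD. Leaving out cells with at least 1% of other markers, or only the deepest MPG-HD cell (chosen after the data were seen), gave 84 and 56 higher.

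Of 703 alternative list medians, 6 moved. After thinning, heat shock genes were at −0.08 (MPG-HD over PBS) and 0.87 (MPG-HD over G-HD), cytotoxic effectors at 0.18 (MPG-HD over PBS) and helper genes at −2.02 (MPG-HD over G-HD). Cell cycle genes were at −1.13 (MPG-HD over G-HD) with a minimum of 10, and helper genes at 4.88 (G-HD over PBS) with 50. The heat shock median for G-HD over PBS stayed between −1.20 and −0.93 over 11 alternatives.

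Shares of T cells with a UMI moved past counting error at other depths for 4 genes. In PBS, G-HD and MPG-HD, unthinned Cd8a was at 50%, 43.6% and 53.1%, and at 50% in PBS thinned to 2000 UMIs. Cd2 was at 81.0%, 72.3% and 89.8% unthinned and 73.7%, 56.8% and 72.3% at 2000. Foxp3 in G-HD was at 8.91% unthinned, and Ccr6 in MPG-HD at 16.3% unthinned and 17.02% at 2000.

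Of 2824 alternative ratios of single genes, 18 turned direction, and 14 more gave no ratio after thinning because a count was 0 or both were at most 3 UMIs. After thinning those that turned were Oasl2 (0.893) and RT1-Da (0.731) for G-HD over PBS, Hspd1 (1.12) for MPG-HD over PBS, and Gzmk (1.03) and Stip1 (0.825) for MPG-HD over G-HD. Without the cell richest in the gene they were Apod (0.996), RT1-Da (0.962) and Cnp (0.868) over PBS and Cnp (0.834) over G-HD, all for MPG-HD. Without cells with at least 1% of other markers they were Cnp (0.675) over PBS and Tuba1a (0.637) and Cnp (0.684) over G-HD. Without the deepest MPG-HD cell they were Apod (0.952) and Cnp (0.675) over PBS and Tuba1a (0.659) and Cnp (0.667) over G-HD. With at least 3 of the 4 gate genes, RT1-Da (0.564) and Tyrobp (0.806) over PBS turned.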
